A study of Mus musculus with 14 samples.

Results

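Piga and Alg13 are X-linked genes of the endoplasmic reticulum whose products act at early steps of glycan assembly. Their allelic expression was followed in differentiating female mouse ES cells with and without hairpins against Setdb1, a histone H3 lysine 9 methyltransferase. Every SNP of the deposited X chromosome table that lay in an mm10 exon of either gene was taken, and the CAST and 129 reads were added per gene. This gave 5 SNPs for Piga and 22 for Alg13, 27 of the 2239 SNPs in the table, and 2 of the 355 genes with SNPs in exons that belong to no other gene. Both reached the minimum of 10 reads per gene in each library, as did 247 genes in all, which were tested. Piga was selected on its allele ratio, namely on the differences between hairpins and Nons at day 3 and day 5 and their opposite signs, and Alg13 is set beside it as a gene of the same class. These differences are therefore described for both genes and not tested.

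The cells were 1 line of ES cells with the genotype Setdb1+/+ Xist-deltaA/+, from CAST sires and dams that the labels give as 129/C57 and the study's text as 129. The 129 X chromosome carries the Xist deletion and stays active (Xa), so that upon differentiation the CAST X chromosome becomes the inactive X (Xi). RNA-seq was analysed from untransduced cells at day 0 and from cells transduced with the non-silencing hairpin Nons, shSetdb1.4 or shSetdb1.6 and sampled at day 3 and day 5. There were 2 replicates of each of the 7 conditions (14 libraries), which the methods describe as independent experiments. All transduced cells, Nons included, had received retrovirus and puromycin, whereas the day 0 cells had not. The labels place the transduction later in differentiation than the methods do, so the time between transduction and sampling is uncertain. The libraries held 32972 to 101511 reads at X-linked SNPs, the fewest being in Nons replicate 2 at day 5. Autosomal transcripts, Setdb1 and pluripotency markers among them, were not analysed here, so neither the knockdown nor the cell type could be checked.

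Piga encodes the catalytic subunit of the enzyme that starts the glycosylphosphatidylinositol (GPI) anchor by adding N-acetylglucosamine to phosphatidylinositol. GPI anchors hold many proteins on the outer face of the plasma membrane. Alg13 encodes the catalytic partner of Alg14, and the pair adds the second N-acetylglucosamine to the dolichol-linked precursor of N-glycans. In mammals Alg13 makes a short transcript for the glycosyltransferase and longer transcripts with additional domains. X inactivation, which silences most genes on 1 X chromosome of each female cell, sets in when female ES cells differentiate.

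The hairpins are shown first, because each comparison of Setdb1 knockdown rests on them. The stem of shSetdb1.4 matched the coding sequence of Setdb1 in exon 16 of 22 (chr3:95327805-95327825, minus strand, mm10), and that of shSetdb1.6 matched exon 5 of 22 (chr3:95348003-95348023, minus strand). The stem of Nons had no match in the same Setdb1 transcript.
shSetdb1.4: acagatgactttgcagacaaa
shSetdb1.6: aaaagcagttctcaagatcta
Nons: tctcgcttgggcgagagtaag

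Piga (ENSMUSG00000031381.16) lies at chrX:164419787-164433916 on the plus strand. Its SNPs fall in exons 2 and 6 of the 6 exons of the protein-coding transcript Piga-201. The first is in the 5' UTR, the next pair in the coding sequence, and the last pair in the 3' UTR. The sequences around these SNPs, on which every Piga value rests, are given from the mm10 transcript with the SNP in capitals. In order they are the substitutions G164422634A, C164422694G, A164422834G, T164431924C and T164432270C, written with the reference base that stands for 129, the mm10 position and the CAST base.
Piga chrX:164422624-164422644: ctgatgcttgGaccacctcag
Piga chrX:164422684-164422704: ttcagtgtcgCcttccccggg
Piga chrX:164422824-164422844: tcattgagagAgggcacaagg
Piga chrX:164431914-164431934: caagtcctatTagatacttgc
Piga chrX:164432260-164432280: gatgtttacaTgctttcttta

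Alg13 (ENSMUSG00000041718.15) lies at chrX:144317804-144374450, also on the plus strand. The annotation (GENCODE M21) gives it 14 transcripts, of which 2 are used here to place the SNPs. Alg13-202 is protein-coding, has 4 exons and ends at position 144325197. Alg13-210 has 27 exons, reaches the end of the gene and is annotated as subject to nonsense-mediated decay. Of the 22 SNPs, 5 lie in the 3' UTR within the last exon of Alg13-202, in no exon of the long transcripts, and the other 17 lie in exons of the long transcripts, which Alg13-210 counts as 3' UTR. The sequences below were chosen to show the SNPs with the lowest and a high CAST share, the SNPs that stand within 20 bases of each other, and the short transcript. They show A144355619G, C144374036G, the series G144364052A, G144364055A, G144364058A and G144364061A in a run of ccg triplets, the series G144369626A, G144369638C and C144369644G in another repeat, and the short-transcript SNPs G144324836C and G144324855A.
Alg13 chrX:144355609-144355629: ctgtgcctcaAgacacagtta
Alg13 chrX:144374026-144374046: ttcattggagCcagcttcctg
Alg13 chrX:144364044-144364069: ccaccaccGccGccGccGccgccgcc
Alg13 chrX:144369621-144369649: cagccGcagccgcagccGcagccCcagcc
Alg13 chrX:144324832-144324859: tcctGtaaaatagacaagggctgGggaa

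Before differentiation the alleles of Piga did not differ beyond their error, while Alg13 gave fewer CAST than 129 reads. For Piga the Xi/Xa ratio, (CAST + 1)/(129 + 1) reads, was 1.42 in replicate 1 (67 CAST and 47 129 reads) and 1.145 in replicate 2 (78 and 68). The CAST allele was 0.34 above the 129 allele on the log2 scale (SE 0.25, and 0.11 to 0.60 with 1 library left out), which did not pass the test (adjusted p = 0.348, quasi-likelihood test of edgeR, adjusted by Benjamini-Hochberg over 247 genes). Alg13 had ratios of 0.602 (1103 and 1833 reads) and 0.662 (1282 and 1938 reads). The difference of -0.66 (SE 0.11) passed the test (adjusted p = 5.615e-08), as did 22.3% of the tested genes (14.2% with fewer CAST reads). In Alg13 the starting point of the later comparisons was thus an allele ratio under 1. The X chromosome content of the cells was not checked here. The paper writes of XO cells in its differentiation system and of a further replicate whose cells had become XO.

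At day 3 the Piga ratio was highest with Nons and lower with each hairpin. With Nons it was 1.375 (43 CAST and 31 129 reads) in replicate 1 and 1.81 (55 and 30) in replicate 2. The ratio of the shSetdb1.4 libraries was 0.667 (17 and 26) and 1.07 (44 and 41). The shSetdb1.6 libraries had 1.08 (27 and 25) and 0.977 (41 and 42). The 2 Nons libraries lay above all 4 hairpin libraries. How many of the tested genes separate completely, at day 3 or at day 5, was not counted. Within replicates the hairpins stood 0.35 to 1.04 below Nons on the log2 scale, and the fitted difference was -0.75 (SE 0.36). In this contrast edgeR called 0% of the tested genes, with 7 at an unadjusted p under 0.05, and DESeq2 called 0.

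At day 5 the order was the opposite. In Nons the CAST allele of Piga was the minor allele, with a ratio of 0.531 (33 CAST and 63 129 reads) in replicate 1 and 0.444 (7 and 17) in replicate 2. The shSetdb1.4 libraries had ratios of 1.00 (31 and 31) and 0.882 (44 and 50). The ratios of the shSetdb1.6 libraries were 1.21 (51 and 42) and 1.64 (35 and 21). All 4 hairpin libraries lay above both Nons libraries, by 0.91 to 1.88 on the log2 scale within replicates, and the fitted difference was 1.18 (SE 0.40), a 2.26-fold higher ratio with the hairpins. In the same contrast 4.05% of the tested genes, which are 10 genes, passed the test (3.64% with a higher ratio). That count was 1, with a lower ratio, after centring on the library median, 15 with at least 30 reads per gene in every library and 18 with SNPs at least 100 bases apart. It was 0 without the replicate block, 1 without Nons replicate 1 or shSetdb1.6 replicate 1 of day 5 and 53 without shSetdb1.4 replicate 1 of day 5, and the other libraries left out gave 2 to 10. In direction, 206 of the 247 genes were higher with the hairpins, with a median of 0.35. Relative to the median of the tested genes in each library the fitted difference was 0.81. The Nons replicate 2 value rests on 24 reads, and its CAST share of 29.2% had an exact binomial 95% interval of 12.6% to 51.1%, which covers counting error only. Without that library the difference came from Nons replicate 1 alone, whose CAST share was 34.4% (25.0% to 44.8%).

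Between day 3 and day 5 the log2 ratio of Piga differed by -1.67 (SE 0.44) with Nons, a contrast in which 10.1% of the tested genes passed (25 genes, and 10 to 35 with 1 library left out, the fewest without Nons replicate 1 of day 5). The replicate means of the hairpins went from -0.24 to -0.09 with shSetdb1.4 and from 0.04 to 0.49 with shSetdb1.6. The change of the hairpin difference between the days was 1.93 (SE 0.53), the highest of the 247 tested genes, of which 0.81% passed, and the value for which Piga was selected. The contrasts share the Nons libraries, which were high at day 3 and low at day 5.

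**Figure D1:**
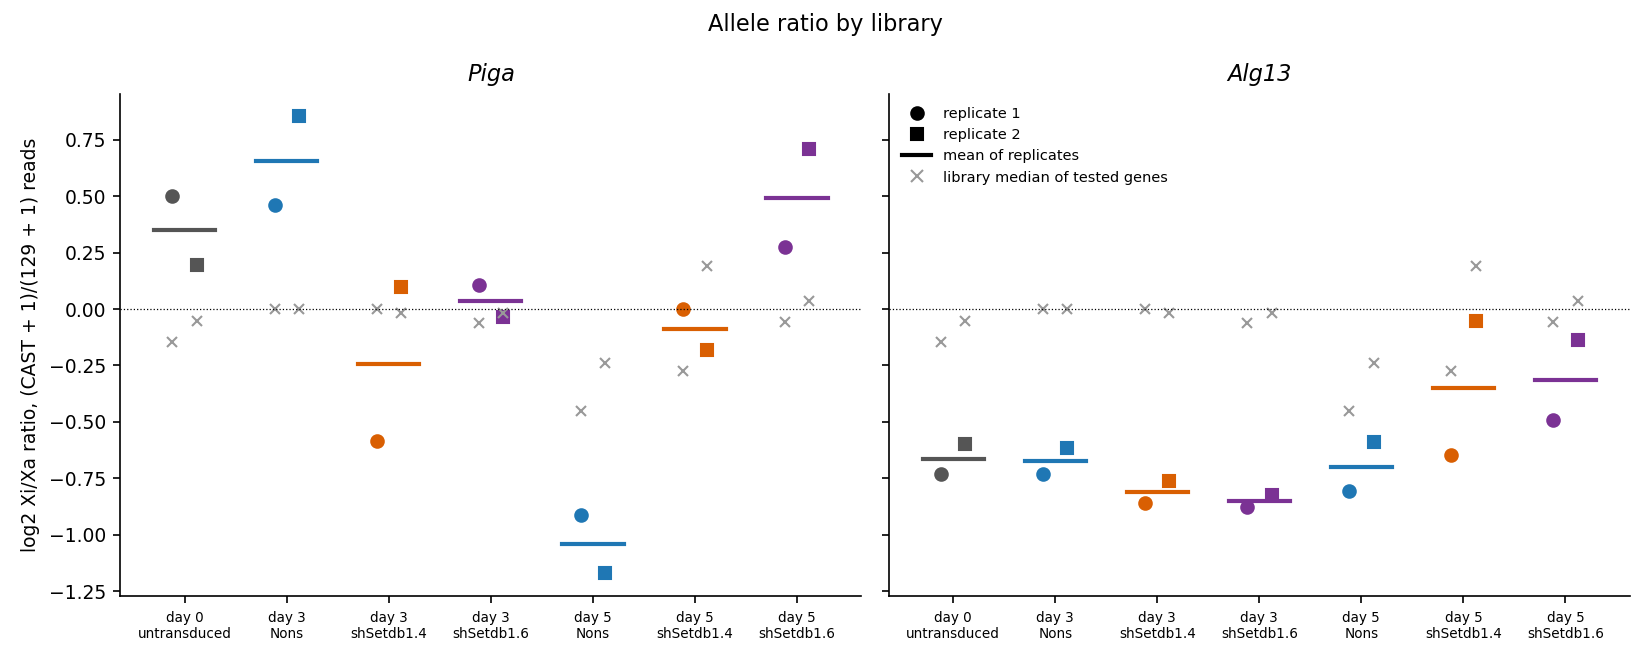
Xi/Xa ratio of Piga and Alg13 on the log2 scale in each of the 14 libraries (circles, replicate 1; squares, replicate 2; bars, mean of the replicates; crosses, median of the tested genes in that library). Piga with Nons is above both hairpins at day 3 and below both at day 5, where its 2 libraries were at 0.531 and 0.444 on the linear scale, whereas Alg13 stays under 0 in all libraries.

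Alg13 showed the same signs with smaller sizes. At day 3 its ratio was 0.603 and 0.653 in the Nons libraries, 0.551 and 0.589 in those of shSetdb1.4 and 0.544 and 0.565 in those of shSetdb1.6. The hairpins were only 0.13 to 0.21 below Nons within replicates, in a contrast in which 0% of the tested genes passed. At day 5 Nons had 0.571 and 0.665, shSetdb1.4 had 0.639 and 0.965 and shSetdb1.6 had 0.712 and 0.910. Here the lowest hairpin library lay under the highest Nons library, and the hairpins were 0.16 to 0.54 above Nons within replicates. The fitted difference at day 5 was 0.37 (SE 0.15), near the median of 0.35 over all tested genes, and it was 0.03 after each library was centred on the median of its tested genes. The 2 hairpin libraries near equal expression were both of replicate 2, with 661 CAST and 685 129 reads in the shSetdb1.4 library and 558 and 613 in that of shSetdb1.6.

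The average over Nons, shSetdb1.4 and shSetdb1.6, with equal weights, was compared between the days. The values are given with no test, since the averages contain the differences between hairpins and Nons. From day 0 to day 3 the log2 difference was -0.17 (SE 0.30) for Piga, with Nons alone at 0.34 (SE 0.38), and -0.12 (SE 0.13) for Alg13, with Nons alone at -0.01 (SE 0.16). In that contrast edgeR called 0% of the 247 genes, with 17 at an unadjusted p under 0.05, and DESeq2 called 0. From day 3 to day 5 the average was 0.33 higher for Alg13 (SE 0.097), and 0.32 without the replicate block. With Nons alone the difference of Alg13 was -0.02 (SE 0.17), so that the higher average of these uncentred ratios lies in the hairpin libraries. Relative to the library median the Nons libraries were higher at day 5 as well (-0.36 and -0.35, next to -0.73 and -0.62 at day 3). For Piga the difference of the average was -0.39 (SE 0.25, and -0.49 to -0.25 with 1 library left out). Over all tested genes the median was -0.10, and 19% of them passed the test, 35 with a lower and 12 (4.86%) with a higher ratio.

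Relative to other genes of the same library, Alg13 stood nearer the middle at day 5 than before. Its log2 ratio lay 0.54 to 0.86 below the library median at day 0 and day 3, and 0.17 to 0.43 below it at day 5. Among all tested genes, 48 of 247 passed from day 3 to day 5 after centring on the library median, 20 of them higher. With Nons the uncentred log2 ratio of Alg13 differed by -0.02 between these days. The medians of the Nons libraries were 0 at day 3 and -0.45 and -0.24 at day 5. In the day 5 libraries 21.1% to 32.1% of the other tested genes had a lower ratio than Alg13, compared with 7.72% to 15.9% at the earlier days. Piga was placed higher than 82.9% and 94.7% of the other tested genes in the Nons libraries of day 3, and higher than 17.5% and 7.72% of them in the Nons libraries of day 5. With the hairpins at day 5 its place varied from 24.4% to 90.7%.

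The hairpins were compared with each other as well. At day 3 shSetdb1.4 differed from shSetdb1.6 by -0.19 (SE 0.43) for Piga and by 0.04 (SE 0.17) for Alg13, both with an adjusted p of 0.974. At day 5 the differences were -0.58 (SE 0.41) for Piga and -0.03 (SE 0.17) for Alg13, both with an adjusted p of 0.991. Of all tested genes 0.81% passed at day 3 and 0.405% at day 5. For Piga the standard errors leave room for a difference between the hairpins of the same order as that between hairpins and Nons, since 31 to 51 CAST reads per library stand behind the day 5 ratios.

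The single SNPs of Piga mostly followed its sum. With the replicates and hairpins added, each of the 5 SNPs had a higher ratio with the hairpins than with Nons at day 5. In the 5' UTR, G164422634A gave 4 CAST and 8 129 reads with Nons and 22 and 19 with the hairpins. In the coding sequence, C164422694G gave 10 and 13 reads with Nons and 39 and 27 with the hairpins, and A164422834G gave 5 and 19 with Nons and 38 and 36 with the hairpins. In the 3' UTR, T164431924C gave 3 and 19 reads with Nons and 14 and 25 with the hairpins, and T164432270C gave 18 and 21 with Nons and 48 and 37 with the hairpins. In replicate 1, 4 SNPs had at least 10 reads in all 3 day 5 libraries and all 4 were higher with both hairpins, while in replicate 2 no SNP was covered in this way. At a minimum of 5 reads, 8 of 8 SNP comparisons over both replicates were higher with both hairpins.

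At day 3 the SNPs of Piga split. The 3 SNPs of exon 2 had ratios of 1.64, 2.08 and 1.43 with Nons and of 0.731, 0.833 and 0.846 with the hairpins. In the 3' UTR, T164432270C was nearly level (1.68 and 1.56), and T164431924C was higher with the hairpins (0.667 with 13 reads and 1.00 with 24 reads). The position T164431924C also had the lowest day 0 ratio, 0.409 from 29 reads, when the others lay between 1.29 and 1.59. Without the most covered SNP, T164432270C, the fitted difference between hairpins and Nons was -0.96 at day 3 and 1.46 at day 5. SNPs within the 100-base read length can share reads, and SNPs of 1 gene come from the same libraries, so they are no replicates.

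**Figure D2:**
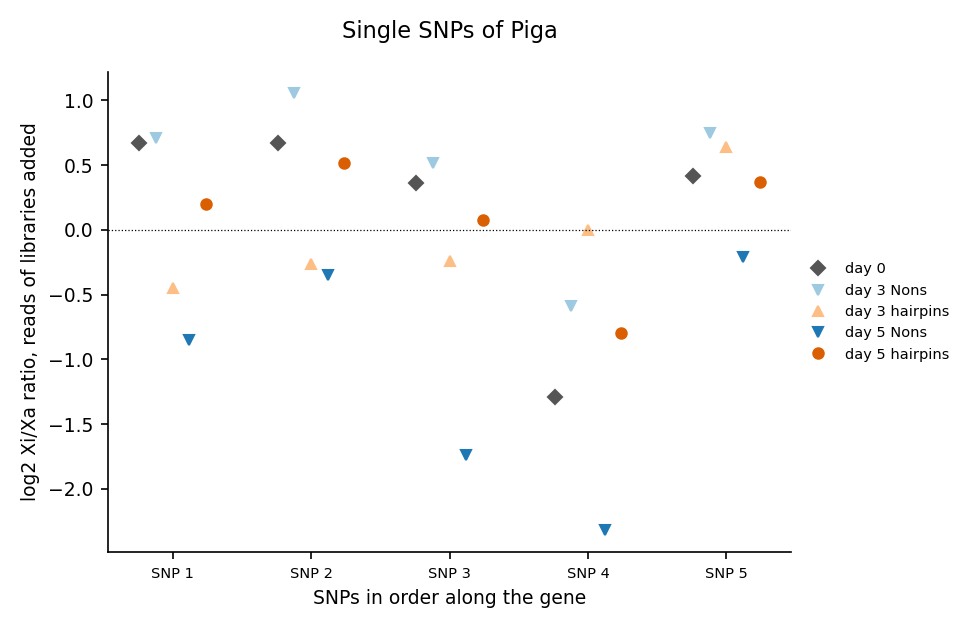
Log2 Xi/Xa ratio at each of the 5 SNPs of Piga in gene order, with the reads of the libraries of each set added. The day 5 Nons point lies below the day 5 hairpin point at every SNP, while at day 3 the Nons point is above the hairpins at the first 3 SNPs and below them at SNP 4.

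The SNPs of Alg13 differed far more from each other than the conditions did. At day 0, with both replicates added, the ratio was 0.253 at A144355619G (79 CAST and 315 129 reads), 0.432 at G144342782C (162 and 376), 0.991 at A144349392C (227 and 229) and 1.10 at C144374036G (367 and 334). These SNPs were covered in all 14 libraries. Their ratios had medians over the libraries of 0.241, 0.410, 0.914 and 1.08 and ranges of 0.122 to 0.50, 0.341 to 0.746, 0.788 to 1.28 and 0.912 to 2.125, so that the ranges of the first pair overlapped, as did those of the last pair. Across 21 SNPs the log2 ratios of the other sets of libraries correlated with those of day 0 with r = 0.942 to 0.960, and the day 0 replicates with each other with r = 0.78. All points of these correlations share the reference genome and the mapping, and neighbouring SNPs share reads.

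The SNPs were set in 3 classes, whose added reads gave different levels although single SNPs of the classes overlapped. The 7 SNPs of the long transcripts with another SNP within 20 bases, those in the repeats printed above, had a ratio of 0.350 at day 0 (363 CAST and 1038 129 reads). The other 10 SNPs of the long transcripts had a ratio of 0.728 (1935 and 2657 reads), A144355619G and G144342782C among them, and the 5 SNPs of the short transcript one of 1.14 (87 and 76 reads). The long transcripts hold nearly all Alg13 reads, so the sum follows their ratio. With SNPs at least 100 bases apart, without the most covered SNP, without the SNPs of the short transcript and under the other alternatives the day 0 difference stayed between -0.71 and -0.55, with adjusted p of at most 0.000339. The part of read mapping in these levels was not tested.

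Class by class, the day 5 values stood as follows. At the long-transcript SNPs that have no close neighbour the ratio was 0.719 with Nons and 0.908 with the hairpins, next to 0.727 and 0.680 at day 3. At the SNPs with close neighbours it was 0.204 with Nons and 0.412 with the hairpins, next to 0.386 and 0.252 at day 3. At the short-transcript SNPs, with few reads, the replicates disagreed. In replicate 1 of day 5 the ratio was 1.43 with Nons, 0.962 with shSetdb1.4 and 0.819 with shSetdb1.6, and in replicate 2 it was 0.9375 with Nons (29 reads), 1.17 with shSetdb1.4 and 1.89 with shSetdb1.6. At day 3 replicate 1 had 0.923 with Nons, 1.17 with shSetdb1.4 and 1.78 with shSetdb1.6, and replicate 2 had 1.265, 3.30 and 1.08. With libraries added, both classes of the long transcripts were thus higher with the hairpins at day 5 and lower at day 3, and the short transcript showed no direction that both replicates shared at day 5. The classes were drawn after the values were seen, and no test was made between them.

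Counted SNP by SNP, the agreement in Alg13 was partial. At day 5, 12 of 21 covered SNPs in replicate 1 were higher with both hairpins than with Nons and 4 were lower with both, and in replicate 2 the counts were 9 and 3 of 14. At day 3, 10 of 17 covered SNPs were lower with both hairpins in replicate 1 and 1 was higher, and 8 of 17 were lower in replicate 2 and 2 were higher. Between day 3 and day 5, with Nons and the hairpins averaged, 11 of 17 SNPs were higher at day 5 in replicate 1 and 12 of 14 in replicate 2.

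**Figure D3:**
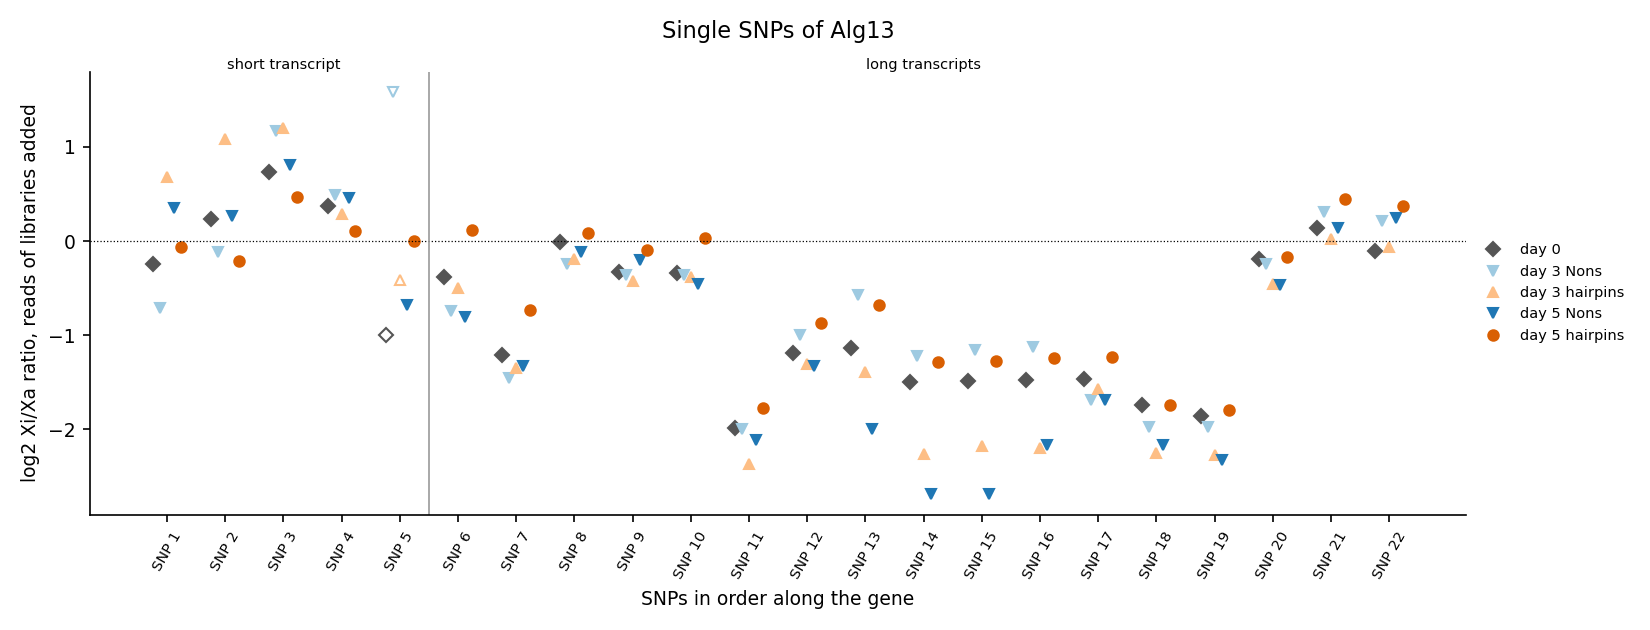
Log2 Xi/Xa ratio at each of the 22 SNPs of Alg13 in gene order, with the reads of the libraries of each set added (open symbols, under 10 reads). SNPs 1 to 5 belong to the short transcript and SNPs 6 to 22 to the long transcripts; the levels differ between SNPs from about 0.25 to over 1 on the linear scale, and the log2 ratios of the other sets correlate with day 0 with r of at least 0.942, although several SNPs change places.

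Total reads of Alg13 fell during differentiation, while a decrease of Piga passed the test only near the threshold. The normalised counts (CPM) are relative to the X-linked SNP reads after TMM scaling, and in bulk RNA fewer expressing cells and less RNA per cell cannot be told apart. Alg13 had 36420 and 39370 CPM at day 0, 23640 to 34100 CPM at day 3 (median 29030, 6 libraries) and 13080 to 22030 CPM at day 5 (median 17000, 6 libraries), so that the days did not overlap. The decrease from day 3 to day 5 was -0.73 on the log2 scale (SE 0.14, adjusted p = 0.000459, quasi-likelihood test of edgeR, adjusted by Benjamini-Hochberg), a contrast in which 56.3% of the genes passed and 29.6% were lower. From day 0 to day 3 the difference of -0.39 (SE 0.19) did not pass (adjusted p = 0.190), and 16.6% of the genes passed there (9.31% lower), which are 41 genes and only 4 without replicate 1 of day 0.

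Piga had 1414 and 1785 CPM at day 0, 919 to 1497 CPM at day 3 (median 1328) and 755 to 1151 CPM at day 5 (median 932), with overlap between neighbouring days. Its difference from day 3 to day 5 was -0.44 (SE 0.17, adjusted p = 0.0431), and that from day 0 to day 3 was -0.32 (SE 0.23, adjusted p = 0.393). The day 5 call for Piga stood near the threshold, and 1 of 5 alternatives with all libraries kept it. It was lost with DESeq2 (adjusted p = 0.0740), and when any of 9 libraries was left out, namely Nons replicate 1, shSetdb1.4 replicate 2 or either shSetdb1.6 library of day 3, or Nons replicate 2 or any of the 4 hairpin libraries of day 5, with differences of -0.45 to -0.34 and adjusted p of 0.0569 to 0.160.

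No difference in totals between hairpins and Nons passed the test for either gene. For Piga the difference to Nons was -0.07 (SE 0.26) at day 3 and -0.07 (SE 0.26) at day 5, and for Alg13 it was -0.03 (SE 0.20) and -0.03 (SE 0.21), with adjusted p of 0.986 to 0.997. In these contrasts edgeR called 0% of the 247 genes, with 4 at day 3 and 6 at day 5 at an unadjusted p under 0.05, and DESeq2 called 0 in each. The mean totals of Piga at day 5 were 953 ± 280 CPM (SD, n = 2) with Nons, 954 ± 96.8 CPM in cells with shSetdb1.4 and 904 ± 104 CPM in those with shSetdb1.6.

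**Figure D4:**
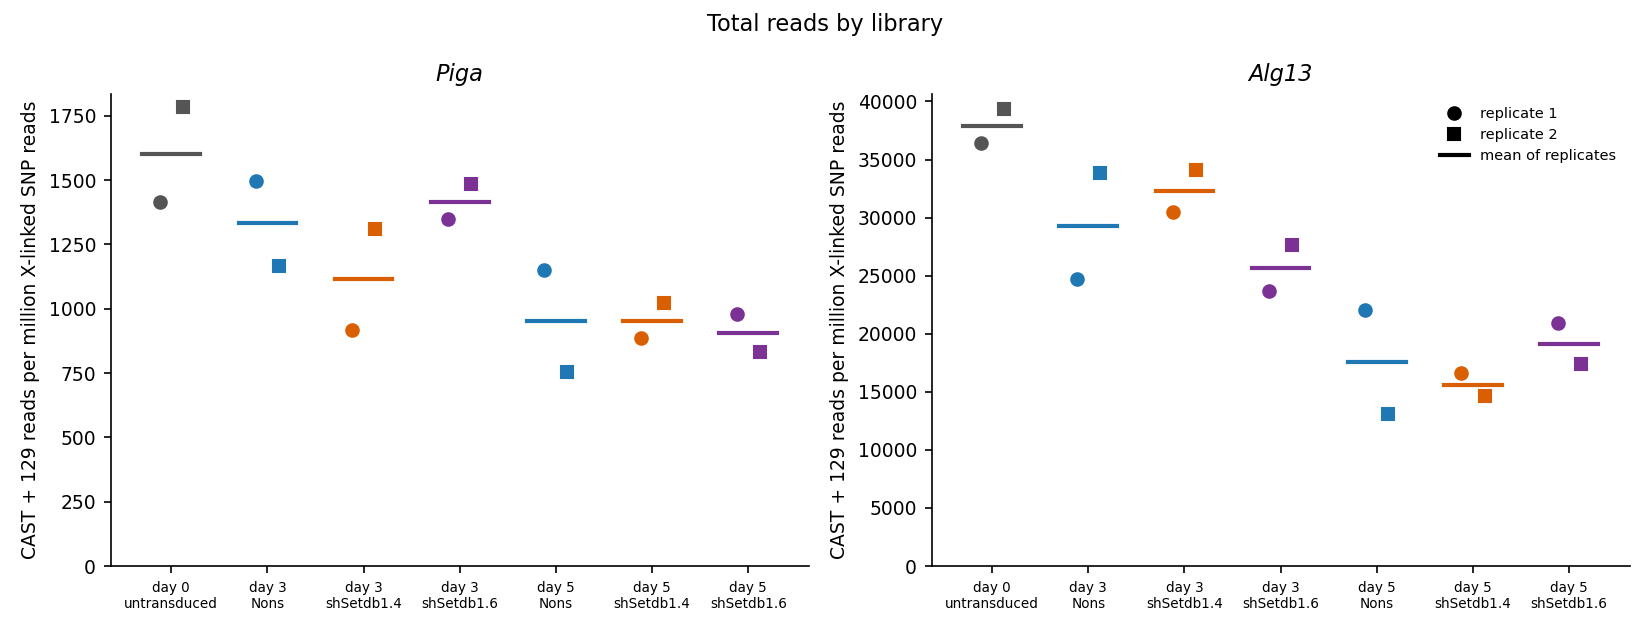
Total CAST and 129 reads of Piga and Alg13 in each library, in CPM relative to the X-linked SNP reads, from an axis starting at 0 (circles, replicate 1; squares, replicate 2; bars, mean). Alg13 declines from 36420 and 39370 CPM at day 0 to at most 22030 CPM at day 5, and Piga from 1414 and 1785 CPM to at most 1151 CPM. At day 5 the Nons libraries are the lowest and the highest for both genes.

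The reads of Alg13 were also divided by transcript form. The SNPs in the last exon of the short transcript took 1.77% and 3.61% of the Alg13 reads at day 0, 1.49% to 3.51% at day 3 and 4.27% to 8.76% at day 5. The 6 libraries of day 5 all lay above the 8 earlier ones, with Nons at 7.56% and 6.97% and thus inside the range of the hairpins. In CPM the short-transcript SNPs ranged from 697 to 1315 at day 0, 411 to 1068 at day 3 and 742 to 1666 at day 5, so these levels overlapped between the days, while the decrease of the gene was at least as large without them (-0.81, SE 0.14, adjusted p = 0.000195). This division was made after the values were seen, and the share was not tested.

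**Figure D5:**
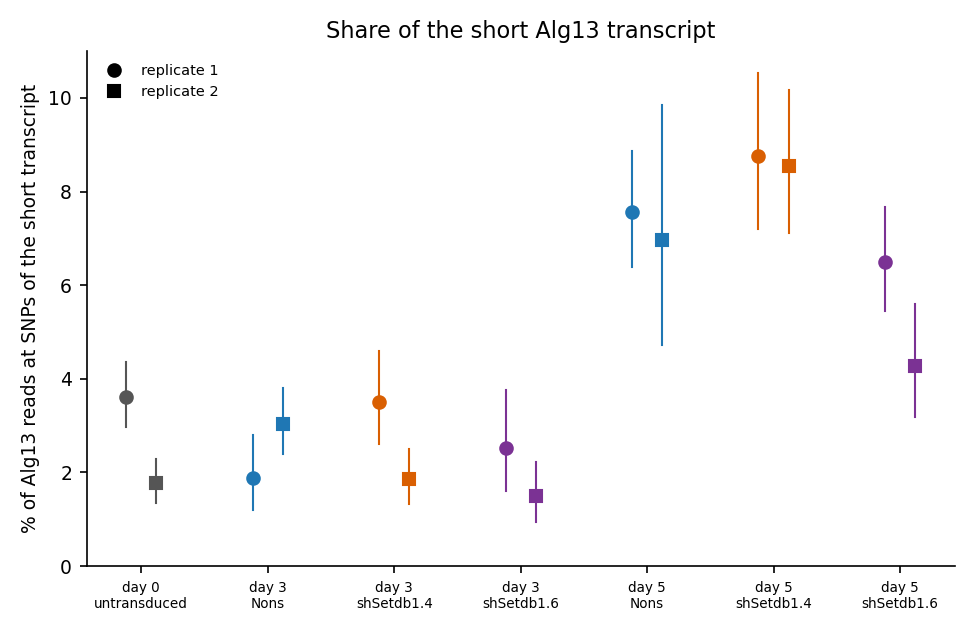
Percentage of the Alg13 reads of each library that lay at the 5 SNPs of the short transcript, with exact binomial 95% intervals for counting error. The 6 day 5 libraries lie between 4.27% and 8.76%, above the 8 libraries of day 0 and day 3, which reach 3.61%.

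Other X-linked genes of glycan synthesis, GPI-anchored proteoglycans, glycan breakdown and the related proton pump were examined as a list of 16 genes with Piga and Alg13. Of these, 11 had SNPs and were tested, 9 besides Piga and Alg13, and Ssr4, Hs6st2, Chst7, Bgn and Atp6ap1 had none. At day 5 the ratio was higher with the hairpins than with Nons in 9 of 9 genes with a median of 0.53 (0.35 over all tested genes). Of these, 0 of 9 passed the test, in a contrast in which 4.05% of all tested genes passed (3.64% higher). The differences were 0.77 (SE 0.44) for Slc35a2, the transporter of UDP-galactose into the Golgi, 0.90 (SE 0.40) for Gpc4, a GPI-anchored heparan sulfate proteoglycan, 0.49 (SE 0.19) for Ogt, the O-GlcNAc transferase, and 0.19 (SE 0.28) for Magt1, a subunit of the oligosaccharyltransferase. The same direction was found in 206 of 247 tested genes.

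From day 3 to day 5 the allele ratio changed in 1 of 9 genes of the list, near the 19% of all tested genes that passed (4.86% higher). Atp6ap2, an accessory subunit of the vacuolar proton pump, rose by 0.45 (SE 0.16, adjusted p = 0.0356), and the median of the 9 genes was -0.21 (-0.10 over all tested genes). Its call was lost without any 1 of 7 libraries, most clearly without Nons replicate 1 of day 5 (0.21, adjusted p = 0.594). Gla had a larger value, 0.77 (SE 0.32), that did not pass (adjusted p = 0.0764). In total reads 4 of 9 genes fell from day 0 to day 3 and none rose, in a contrast in which 16.6% of all tested genes passed and 9.31% were lower. Without replicate 1 of day 0 none of the 4 passed (adjusted p of 0.0722 to 0.566). With 1 of 14 libraries left out in turn, the call was lost in 8 fits for Atp6ap2, in 4 for Gla and in 1 each for Lamp2 and Magt1. These were Magt1 (-0.96, SE 0.17), Gla, the lysosomal alpha-galactosidase (-0.86, SE 0.23), Lamp2, a heavily glycosylated lysosomal membrane protein (-1.76, SE 0.27), and Atp6ap2 (-0.66, SE 0.20). From day 3 to day 5, Ogt (0.70, SE 0.14) and Lamp2 (0.80, SE 0.22) rose, and Magt1 (-0.34, SE 0.13) and Gpc4 (-1.80, SE 0.19) fell, which is 4 of 9 genes where 56.3% of all tested genes passed. The call for Magt1 was lost without any 1 of 11 libraries (differences down to -0.20 without shSetdb1.6 replicate 1 of day 3), and the other 3 genes passed in all 14 fits with 1 library left out. The totals of the list did not move together, with medians of -0.13 and 0.12 for the 9 genes in these intervals, next to 0.02 and -0.04 over all tested genes.

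Values of the nearest tested genes are given beside those of Piga and Alg13, and no test was made between genes. Pir, the tested gene just before Piga, had a day 0 ratio of -1.06 (SE 0.20, adjusted p = 1.91e-06) where Piga had 0.34. Before Pir, Siah1b had 0.003 (SE 0.23) and Zrsr2 had -0.19 (SE 0.14), neither past the test. Fancb, 0.547 Mb behind Piga, encodes a subunit of the Fanconi anemia core complex and had 0.32 (SE 0.23, adjusted p = 0.329). Farther behind, Gemin8 had -1.44 (SE 0.41, adjusted p = 0.00353) and Ofd1 had -0.32 (SE 0.19, adjusted p = 0.247). Near Alg13, Lrch2 lies 3.10 Mb behind and had a low day 0 ratio (-1.60, SE 0.37, adjusted p = 0.000126), and it rose from day 3 to day 5 (1.32, SE 0.29, adjusted p = 0.00014). Apex2 and Pfkfb1, farther behind Alg13, had day 0 ratios of -0.18 (SE 0.28) and -0.57 (SE 0.35) that did not pass the test. Of the 3 genes before Alg13, Tmem164 had an allele ratio of -0.71 at day 0 (SE 0.16, adjusted p = 0.000126) and a difference of 0.27 (SE 0.13, adjusted p = 0.154) from day 3 to day 5, while its total rose by 0.75 (SE 0.11, adjusted p = 7.96e-05) where that of Alg13 fell. Ammecr1 had 0.42 at day 0 (SE 0.21, adjusted p = 0.170) and 0.31 (SE 0.22, adjusted p = 0.406) from day 3 to day 5. Acsl4, an acyl-CoA synthetase gene, had 0.50 at day 0 (SE 0.15, adjusted p = 0.00697) and -0.32 (SE 0.13, adjusted p = 0.0629) from day 3 to day 5.

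By the correlation of log2 ratios over the 14 libraries, the genes most like Piga were Elf4 (r = 0.78), Tab3 (r = 0.768) and Fancb (r = 0.733). Those most like Alg13 were Flna (r = 0.861), Uba1 (r = 0.835) and Bex1 (r = 0.829). Piga and Alg13 correlated with each other with r = 0.22, and with r = -0.0661 after centring on the library median. The points share library-wide shifts of the allele ratio, and after centring on the library median Piga kept these 3 genes, with r = 0.718, 0.697 and 0.635, whereas Alg13 was closest to Klhl13 (r = 0.854), Tmem47 (r = 0.839) and Flna (r = 0.816). These values describe the libraries and were not tested.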

How the data were processed

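The authors aligned the reads (100 bases, single-end) against mm10 using Subread, and samtools pileup gave the bases at Mouse Genomes Project SNPs. The submitters' processing notes name CASAVA 1.8.2 and SAMtools. The deposited values are raw counts of reads with the 129 (reference) or CAST base, and 28 count columns were used, while 4 columns of other samples were not. A read covering several SNPs is counted at each. Use of strand in the counting is not stated, so overlapping antisense transcripts cannot be told apart. SNPs were assigned to exons of GENCODE M21 (mm10), and those in exons of several genes were left out.

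Genes that had 10 or more reads in each library were tested by quasi-likelihood in edgeR 4.0.16 (R 4.3.3), adjusted by Benjamini-Hochberg, at 0.05. The model of allele counts held library terms, allele effects per condition and, as a block, allele effects per replicate number. Totals were fitted with TMM and no block. All 14 libraries shared the estimate of the spread. Ratios of single libraries used 1 added to each count, and SNPs were counted from 10 reads. DESeq2 1.42.0 was an alternative, and Python 3.11.15 with pandas 2.3.3 and scipy 1.17.1 did the rest. The models were also run on simulated counts, and the outcome is not given here. The transcript sequences come from GENCODE M21 and the hairpin stems from the study's supplement. P-values measure the spread between 2 experiments with 1 cell line. In the allele tests this spread was pooled over genes, so the difference between the 2 replicates of a single gene had little weight.

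The genes named were Piga and Alg13 with every SNP, the glycosylation list, the 3 nearest tested genes on each side and the 3 genes with the most similar ratios. These members, the list and the tests were chosen with earlier results of these data known.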

Additional observations from a re-analysis of the deposited data

Results flagged for a closer look

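The difference between hairpins and Nons had opposite signs at day 3 and day 5 in both genes. For Piga all 4 comparisons within replicates were lower with the hairpins at day 3 and all 4 were higher at day 5, and the mean difference changed by 2.00 on the log2 scale between the days. For Alg13 the same held, and the change was 0.53. Relative to the library median the pattern of Alg13 did not hold at day 5, where replicate 1 had -0.36 with Nons, -0.37 with shSetdb1.4 and -0.43 with shSetdb1.6. In the fits the change had a median of 0.33 over all tested genes, 191 of 247 genes were above 0, and 82 genes had a higher value than Alg13. The difference between the days was not tested, since Piga was picked for it. Both hairpins of a replicate were compared with the same Nons library, so the 4 comparisons of a day rest on 2 Nons libraries.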

How the results depend on the processing

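With both replicates kept, 151 of 168 values under the alternatives kept their direction and their side of the threshold or moved by less than the spread, and 273 of 308 did so with 1 library left out. The cause of the changes below was not tested. With ratios centred on the library median, the difference of hairpins to Nons at day 5 was 0.81 for Piga and 0.030 for Alg13, that between the hairpins at day 5 was 0.0048 for Alg13, and the highest correlation with Alg13 was 0.854. With SNPs at least 100 bases apart, the difference to Nons at day 3 was -0.63 for Piga and -0.071 for Alg13, the difference between hairpins for Alg13 was -0.0024 at day 3 and 0.055 at day 5, and the total of Alg13 with hairpins against Nons at day 3 was 0.0038. Without the most covered SNP, Piga had 0.085 between hairpins at day 3, -0.96 to Nons at day 3 and 1.46 at day 5, and Alg13 had -0.19 to Nons at day 3. The total of Piga from day 3 to day 5 was -0.41 with DESeq2 and with DESeq2 size factors, -0.36 without the read filter and -0.33 with SNPs at least 100 bases apart, none past the threshold (adjusted p of 0.0597 to 0.0995). No SNP comparison of Piga at day 5 had 20 reads (0 of 0 higher with both hairpins), and 8 of 8 were higher at a minimum of 5 reads. With at least 30 reads per gene Piga could not be fitted, because its lowest library had 24 reads.

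With 1 library left out, the Piga ratio ranged from -0.43 to 0.057 from day 0 to day 3, from -0.65 to 0.083 between hairpins at day 3, from -0.97 to -0.54 to Nons at day 3 and from 1.06 to 1.51 to Nons at day 5. Its ratio at day 0 ranged from 0.11 to 0.60. Its total ranged from -0.48 to -0.14 from day 0 to day 3, from -0.56 to -0.34 from day 3 to day 5, from -0.25 to 0.11 to Nons at day 3 and from -0.31 to 0.30 to Nons at day 5. Its ratio from day 3 to day 5 ranged from -0.49 to -0.25. The Alg13 ratio ranged from -0.17 to -0.068 from day 0 to day 3, from 0.25 to 0.40 from day 3 to day 5, from -0.059 to 0.13 between hairpins at day 3, from -0.25 to 0.19 between hairpins at day 5 and from -0.23 to -0.10 to Nons at day 3. Its total ranged from -0.23 to 0.22 to Nons at day 3 and from -0.35 to 0.40 to Nons at day 5. A left-out library leaves its condition with 1 sample, which is assumed to vary like the others.

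Without the replicate block the difference of Alg13 from day 3 to day 5 was 0.32, and 42 genes passed at day 0, 37 from day 3 to day 5 and 0 between hairpins and Nons at day 5, compared with 55, 47 and 10 with the block. With a block for totals, 58 genes passed from day 0 to day 3 and 147 from day 3 to day 5. The labels number the replicates, and the study compares hairpins with Nons within each replicate experiment. Deviations of libraries with the same number correlated by only 0.0514 on average for ratios (over 0.1 in 7 of 21 pairs of conditions). For totals they correlated by 0.208 (17 of 21). These correlations cannot decide whether the libraries are paired. DESeq2 called 34 genes at day 0, 21 from day 3 to day 5 and 5 between hairpins and Nons at day 5. Piga had 24 to 146 reads per library, and Alg13 had 416 to 3220. Between Nons at day 3 and day 5 DESeq2 called 8 genes, compared with 25. Leaving out libraries for the glycosylation list, and leaving out the SNPs of the short Alg13 transcript, were alternatives chosen after seeing the data.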
